A study of Homo sapiens with 14 samples.

Results

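The genes of platelet-derived growth factor (PDGF) signalling, namely the ligand genes PDGFA, PDGFB, PDGFC and PDGFD and the receptor genes PDGFRA and PDGFRB, were described by the accessible chromatin at each gene. Members were the 46 regions, of 65774 regions in all, whose start on hg38 lay in a fixed window around one of the 6 genes: 4 at PDGFA, 5 at PDGFB, 22 at PDGFC, 7 at PDGFD, 4 at PDGFRA and 4 at PDGFRB. They are numbered within each gene by position along the chromosome, so that PDGFC region 14 is the 14th of 22 there. Of the 46 regions, 28 lay inside the RefSeq span of their gene, 3 crossed an end of it and 15 lay outside it.

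The assay was ATAC-seq, where the transposase Tn5 cuts and tags open DNA, on 14 libraries of the human cell line SUM149PT, derived from an inflammatory breast cancer that lacks estrogen and progesterone receptors. The 7 groups of 2 libraries were the unselected line, called Parental, and 6 untreated clones of SUM149PT origin, of which 1 is named E, 3 are named EM1 to EM3 and 2 are named M1 and M2. Each group is the unselected line or a single clone. A difference between groups is thus one between 2 single clones, or between a single clone and the unselected line. Whether the 2 libraries of a group came from separate cultures is not stated, and they may be technical replicates. Every p-value rests on the spread between the 2 libraries within a group, pooled over the 7 groups.

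PDGF ligands are dimers of the chains A, B, C and D that pair the receptor kinases PDGFRA and PDGFRB and so start signalling through adapters such as SHC and phosphoinositide 3-kinase. A and B chains are cut inside the cell before secretion, whereas C and D chains are secreted in a latent form and are activated by proteases outside it. In epithelial tumours the ligands are classically made by the tumour cells and the receptors are carried by fibroblasts and pericytes around them, although carcinoma cells that take on mesenchymal traits can carry the receptors too.

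Accessible regions overlapped an annotated transcription start at PDGFD (region 7) and at PDGFRB (region 3). For PDGFB and PDGFC no start was given, so an overlap there could not be told. At PDGFRA, region 2 ended 953 bases and region 3 ended 360 bases before the nearer of the 2 annotated starts. The 250 bases before each start named at PDGFD, PDGFRB and PDGFRA are shown. Among the genes with a given start, the largest changes near a start in clone M2 fell at or beside them. They are RefSeq sequence of GRCh38.p14, written 5′ to 3′ on the gene's strand and ending at the base before the start. Capitals mark matches, on either strand, to GGGCGG (the GC box bound by SP1 and KLF factors) or TGANTCA (AP-1).
PDGFD, chr11:104164148-104164397, minus strand: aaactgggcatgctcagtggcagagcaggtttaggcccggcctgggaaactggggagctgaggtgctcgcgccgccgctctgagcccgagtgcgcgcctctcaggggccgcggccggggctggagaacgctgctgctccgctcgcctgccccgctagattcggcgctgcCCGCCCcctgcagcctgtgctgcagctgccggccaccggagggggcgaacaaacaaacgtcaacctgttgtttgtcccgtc
PDGFRB, chr5:150155846-150156095, minus strand: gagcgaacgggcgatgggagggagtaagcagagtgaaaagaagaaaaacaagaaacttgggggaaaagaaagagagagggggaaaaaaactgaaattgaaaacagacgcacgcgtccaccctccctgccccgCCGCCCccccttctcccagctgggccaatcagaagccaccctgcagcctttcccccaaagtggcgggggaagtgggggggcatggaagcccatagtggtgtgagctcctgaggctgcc
PDGFRA start 1, chr4:54229043-54229292, plus strand: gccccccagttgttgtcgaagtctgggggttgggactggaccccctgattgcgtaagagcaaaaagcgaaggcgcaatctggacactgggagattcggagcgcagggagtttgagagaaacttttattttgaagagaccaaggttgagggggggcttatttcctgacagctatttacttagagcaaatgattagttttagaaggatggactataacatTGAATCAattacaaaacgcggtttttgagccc
PDGFRA start 2, chr4:54233710-54233959, plus strand: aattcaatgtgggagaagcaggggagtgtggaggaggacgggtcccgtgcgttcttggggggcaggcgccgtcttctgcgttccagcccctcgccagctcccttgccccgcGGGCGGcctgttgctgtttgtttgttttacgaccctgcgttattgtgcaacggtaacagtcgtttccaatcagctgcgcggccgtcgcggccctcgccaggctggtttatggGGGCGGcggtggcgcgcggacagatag

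The PDGFD sequence held 1 GC box match 81 bases before the start, and the PDGFRB sequence held 1 at 118 bases before the start. The first PDGFRA start had 1 match to the string TGANTCA, with A at the free base N, 32 bases before it. The second had GC box matches 139 and 27 bases before it. GGAATG (TEAD) and CACCTG (E-box of ZEB and SNAI factors) had no match in the 4 windows, counted to 50 bases after the start, and TGTGGT (RUNX) had 1, after the PDGFD start. Of 35116 RefSeq promoters of the same length, 45% held GGGCGG, 7.71% TGANTCA, 14% GGAATG, 13.1% TGTGGT and 20.6% CACCTG. A match is a string of letters and was not tied to binding of a factor. PDGFB and PDGFC are named here without a promoter sequence.

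Library totals ranged from 8138944 to 16786823 counts, all 46 regions passed the filter on low counts, and levels are given in CPM, the count relative to the TMM-scaled library size, with the 2 libraries of a group in the order replicate 1, replicate 2. Widths of regions differ (median 407 bases), so levels are compared between groups at 1 region, and a ranking of regions by mean log2 CPM serves only to choose which to show. E replicate 1 stood apart: the correlation of log2 CPM between replicates was 0.87 in E and 0.95 to 0.97 in the other groups, and E replicate 1 correlated with the M2 libraries at 0.54 and 0.54, against 0.35 and 0.36 for E replicate 2. At the 6 member regions where the M2 mean was over 2 log2 units above those of Parental, M1 and the EM clones (PDGFA region 1, PDGFC regions 6 and 17, PDGFRA regions 2 and 4, PDGFRB region 3), E replicate 1 was above E replicate 2 in 6 of 6. Those 6 regions were chosen for a high M2 level, and the same count was not made over all regions. It describes the E libraries and is not a result about the PDGF genes. Epithelial markers had a region for 8 of 8 genes. Their summed mean level was 194 to 333 CPM in Parental, E, EM1, EM2 and EM3, 57.7 in M1 and 67.7 in M2. KRT18 went the other way in M2, at 39.9 CPM against 27.3 in Parental, and made up most of the M2 sum. The other epithelial markers were lower in M2 than in Parental. Pericyte and fibroblast markers had a region for 5 of 8 genes (none for DES, COL1A2 and LUM), summing to 71.8 to 159 CPM with M2 highest. Among them COL1A1 was highest in M1 (28.4 CPM, against 16.3 in M2). Their part in the PDGF values was not tested. No region lay at any of 5 endothelial markers. Blood markers had a region for 3 of 5 genes (SPI1, CD3E and CD14), summing to 58.1 CPM in M2 and up to 115 in EM2. An accessible region at a marker was therefore not taken to name a cell type. In a bulk library a more open region and a larger share of cells with that region open cannot be told apart.

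The first question was which PDGF regions differed anywhere among the 7 groups. A region was called when edgeR's quasi-likelihood F test gave a Benjamini-Hochberg adjusted p under 0.05 over all regions tested. By this rule 39 of the 46 PDGF regions differed across the groups, where 78.6% of all regions did. The 7 that did not pass were PDGFB region 5, PDGFC regions 8, 12, 13, 16 and 22, and PDGFRB region 4. M2 had the highest mean at 17 of the 46 regions and M1 at 15, and the lowest mean was in M2 at 16 and in E at 11. These counts include the 7 regions that did not pass. They were not made over all regions, so whether the PDGF regions differ from others in this was not tested.

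Against Parental, 31 PDGF regions were called in M2 (16 higher and 15 lower), where 67% of all regions were called (32.2% higher and 34.9% lower). M1 had 21 called (15 higher and 6 lower), against a background of 42.4% (19% higher and 23.4% lower). E had 5 of 46 called, 2 higher and 3 lower, against 11.6% of all regions (5.26% higher and 6.31% lower). EM2 had 4, 2 higher and 2 lower, against 9.19% (3.02% higher and 6.17% lower), and EM3 had 1 higher and 1 lower, against 3.11% (1.85% higher and 1.26% lower). EM1 had 0 by edgeR and 0 by DESeq2, and 0.628% of all regions were called (0.341% higher and 0.287% lower). At an unadjusted p under 0.05, EM1 had 6 of 46 PDGF regions (13%) and 10.3% of all regions. In M2 against M1, 27 PDGF regions were called, 10 higher and 17 lower, beside 56.3% of all regions (27.2% higher and 29.1% lower). The median absolute log2 difference from Parental in M2 was 1.43 over the 46 regions and 1.11 over all regions, and in M1 it was 0.62 and 0.64. The 6 comparisons with Parental share the same 2 Parental libraries, so their calls are not independent of one another.

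**Figure D1:**
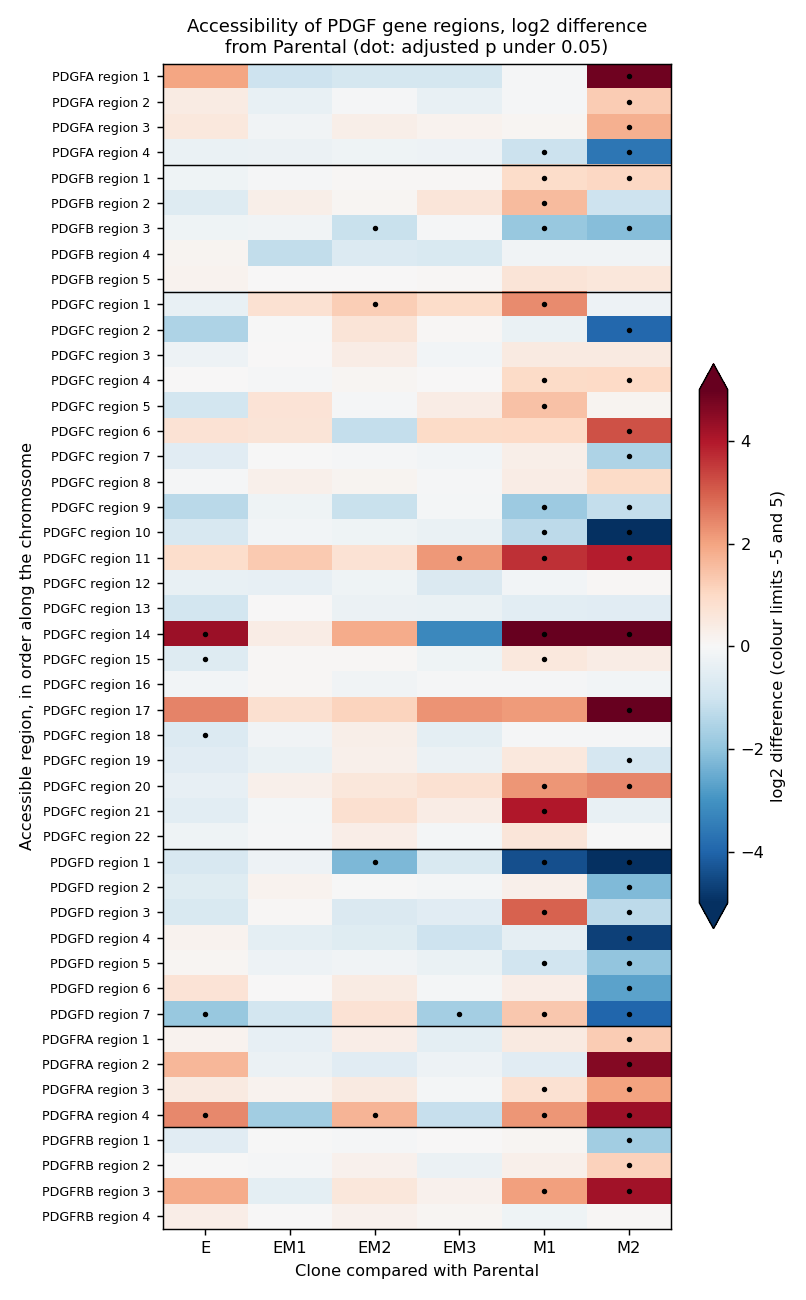
Colour gives the log2 difference of each clone from Parental (columns) at each of the 46 PDGF regions (rows, in order along the chromosome, genes separated by lines; colours end at -5 and 5), and a dot marks an adjusted p under 0.05. Most dots stand in the M1 (21) and M2 (31) columns, all 7 PDGFD rows are blue in M2 and all 4 PDGFRA rows are red in M2.

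PDGFA encodes the A chain, a ligand of PDGFRA. Its 4 regions were called in M2 in both directions, with 3 higher than Parental and 1 lower. Of all regions, 32.2% were higher and 34.9% lower. None of the 4 overlapped any of the 4 annotated starts. Region 4 (chr7:539283-540128, 18583 bases from the nearest start and within the span of the RNA gene LOC105379749) had the highest mean log2 CPM of the 4 over all libraries. It held 40.4 and 37.3 CPM in Parental, 32.0 and 30.4 in E, 37.6 and 25.7 in EM1, 38.9 and 28.6 in EM2, 37.0 and 28.4 in EM3, 18.2 and 18.6 in M1, and 2.40 and 3.74 in M2. Both M clones lay below every other library, and M2 below M1. The log2 difference from Parental was -1.08 ± 0.23 (SE, n = 2 libraries a group; edgeR adjusted p = 0.0019) in M1 and -3.62 ± 0.27 (edgeR adjusted p = 2e-07) in M2.

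Region 1 of PDGFA (chr7:514971-515177, inside the gene) was highest in M2. It held 0.725 and 0.594 CPM in Parental, 5.22 and 0.110 in E, 0.534 and 0.139 in EM1, 0.54 and 0.156 in EM2, 0.463 and 0.201 in EM3, 0.425 and 0.793 in M1, and 19.7 and 19.6 in M2. The next highest value after M2 was that of E replicate 1, the library that stood apart. M2 exceeded Parental by 4.88 ± 0.94 on the log2 scale (edgeR adjusted p = 0.00048) and E, its neighbour in order, with adjusted p = 0.0083. Region 3 (chr7:538248-538558) held 13.1 and 13.1 CPM in Parental, 22.3 and 15.3 in E, 12.4 and 10.7 in EM1, 16.6 and 15.6 in EM2, 16.2 and 13.6 in EM3, 15.7 and 12.7 in M1, and 44.9 and 43.9 in M2. M2 did not overlap any other group there (log2 difference from Parental 1.76 ± 0.21, edgeR adjusted p = 1.1e-05), and no other neighbours in the order of levels differed. Region 2, inside the gene 492 bases from a start, rose in M2 by 1.28 on the log2 scale.

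The neighbourhood of PDGFA also rose in M2. Over the 55 regions within 1 Mb outside the window, the median log2 difference of M2 from Parental was 1.46, and over the 10 Mb window it was 1.13. With the 10 Mb median removed, region 1 kept a difference of 3.75, region 3 of 0.62 and region 4 of -4.75, all still called, whereas region 2 fell to 0.14 and was no longer called. The fall of region 4 was thus set in a neighbourhood whose median rose.

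PDGFB encodes the B chain, a ligand of both receptors. None of its 5 regions lay inside the gene span. Region 3 (chr22:39214414-39214949, on the lower-coordinate side of the gene) fell in both M clones. It held 16.7 and 18.5 CPM in Parental, 15.6 and 14.9 in E, 17 and 14.4 in EM1, 6.86 and 9.27 in EM2, 15.5 and 18.2 in EM3, 3.19 and 6.01 in M1, and 3.55 and 4.43 in M2. The libraries of EM2, M1 and M2 lay below all others, and M1 and M2 overlapped. The log2 difference from Parental was -1.90 ± 0.29 in M1 (edgeR adjusted p = 0.00015) and -2.13 ± 0.30 in M2 (edgeR adjusted p = 3.7e-05). In EM2 it was -1.12 ± 0.28 (edgeR adjusted p = 0.023), a call lost without Parental replicate 1 (-1.20), Parental replicate 2 (-1.08) or EM2 replicate 1 (-0.92).

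Region 2 of PDGFB (chr22:39212712-39213028), under 2 kb from region 3, had its highest level in M1 and its lowest in M2. It held 3.54 and 3.14 CPM in Parental, 2.55 and 1.76 in E, 6.05 and 2.16 in EM1, 3.47 and 3.66 in EM2, 6.43 and 3.63 in EM3, 8.82 and 11 in M1, and 1.49 and 1.76 in M2. M2 was below M1 by 2.60 on the log2 scale (log2 difference -2.60 ± 0.48, edgeR adjusted p = 0.00049). The difference of M1 from Parental, 1.57 ± 0.44 (edgeR adjusted p = 0.011), lost its call without Parental replicate 1 (1.66), Parental replicate 2 (1.5) or M1 replicate 2 (1.40). Region 1 rose by 0.92 in M1 and 1.03 in M2, and the M2 value became 0.51 and lost its call with the 10 Mb median removed.

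Regions 4 and 5 of PDGFB were called in no comparison with Parental. Region 4 (chr22:39220925-39221222) held 8.43 and 4.67 CPM in Parental, 7.89 and 6.37 in E, 2.94 and 2.65 in EM1, 3.70 and 4.52 in EM2, 4.34 and 3.22 in EM3, 6.06 and 5.55 in M1, and 6.30 and 5.35 in M2. Region 5 (chr22:39253510-39253942), with the highest mean log2 CPM at this gene, held 8.71 and 8.99 CPM in Parental, 8.61 and 11.3 in E, 7.30 and 10.5 in EM1, 7.09 and 11.1 in EM2, 8.22 and 10.5 in EM3, 12.1 and 15.2 in M1, and 10.5 and 15.7 in M2. Region 4 was called across the groups, with its lowest level in EM1 (log2 difference from Parental -1.23 ± 0.34, edgeR adjusted p = 0.15), and region 5 was not called across the groups. The 79 flanking regions within 1 Mb had a median difference of 0.73 in M1 and 0.91 in M2.

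PDGFC encodes the C chain, secreted with a CUB domain that proteases remove. Changes in both directions were called among its 22 regions. In M1, 8 were higher than Parental and 2 lower, and in M2, 6 were higher and 5 lower. The called share was 45.5% in M1 and 50% in M2, beside 42.4% and 67% of all regions. Over all regions both directions were called too, in M2 32.2% higher and 34.9% lower. Region 14 (chr4:156942026-156942283, inside the gene) had the widest range of group means of log2 CPM among the 46. It held 0.0907 and 0.0848 CPM in Parental, 3.15 and 0.659 in E, 0.178 and 0.0697 in EM1, 0.231 and 0.468 in EM2, none in EM3, 21.5 and 22.9 in M1, and 14.7 and 22.4 in M2. Zero counts in the EM3 libraries allow up to 0.174 and 0.302 CPM. M1 and M2 overlapped and lay above every other library. The Parental libraries held 2 counts there in all, so the ratio of M1 to Parental was 255 (95% exact interval 70.2 to 2108, counting error only) and that of M2 was 220 (60.6 to 1824). E was called too (ratio 21, 5.37 to 181), and this call was lost without E replicate 1 (log2 difference 2.77), Parental replicate 1 (4.31) or Parental replicate 2 (4.26).

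Region 17 of PDGFC (chr4:156962667-156963010, inside the gene) rose in M2. It held 0.0907 and 0.594 CPM in Parental, 3.15 and 0.879 in E, 0.267 and 0.906 in EM1, 1.08 and 0.468 in EM2, 0.926 and 2.62 in EM3, 1.17 and 1.92 in M1, and 22 and 19.6 in M2. M2 stood above all other libraries, and the other groups overlapped in the order of levels apart from M1 and EM2, which did not differ by test. The log2 difference of M2 from Parental was 5.86 ± 0.80 (edgeR adjusted p = 3.1e-05) and from M1 was 3.71 ± 0.67 (edgeR adjusted p = 0.00042).

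Region 10 of PDGFC (chr4:156824544-156825036, inside the gene) fell in both M clones. It held 14.2 and 16.2 CPM in Parental, 6.67 and 10.9 in E, 11.8 and 15.9 in EM1, 11.6 and 14.6 in EM2, 9.03 and 15.3 in EM3, 6.38 and 5.81 in M1, and 0.344 and 0.0764 in M2. M2 held 4 counts in all and lay far below M1, which lay below the rest. The log2 difference from Parental was -1.32 ± 0.34 in M1 (edgeR adjusted p = 0.0065) and -6.28 ± 0.54 in M2 (edgeR adjusted p = 5.6e-07). Region 3 (chr4:156771192-156771811), the PDGFC region with the highest mean log2 CPM, held 18.9 and 26.3 CPM in Parental, 20.5 and 17.6 in E, 23.7 and 22 in EM1, 35.5 and 23.5 in EM2, 20.2 and 20.9 in EM3, 29.9 and 31.2 in M1, and 27.1 and 33.9 in M2. It was called across the groups, yet no 2 neighbours in its order differed and it was called in no comparison with Parental.

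Further PDGFC regions were picked after their values were seen. Region 21 (chr4:156977416-156977800, beyond the higher-coordinate end of the gene) held 1.09 and 1.53 CPM in Parental, 0.485 and 1.32 in E, 1.07 and 1.39 in EM1, 1.62 and 2.96 in EM2, 1.74 and 1.61 in EM3, 17.1 and 25.4 in M1, and 1.15 and 0.917 in M2. It was high in M1 alone, with a log2 difference of 4.01 ± 0.44 from Parental (edgeR adjusted p = 1.1e-05), and M2 differed from M1 by -4.37 ± 0.46. Region 20, under 2 kb from it, rose in both M clones, by 2.2 in M1 and 2.45 in M2. Region 11 (chr4:156830348-156830726), under 6 kb from region 10, moved the other way from region 10 in the same clones. It held 1.09 and 2.38 CPM in Parental, 4.25 and 2.2 in E, 3.29 and 5.30 in EM1, 2.24 and 3.58 in EM2, 7.76 and 7.96 in EM3, 20.4 and 23.4 in M1, and 26.3 and 27.2 in M2. The M1 and M2 libraries lay above all others, followed by EM3. Relative to Parental the log2 difference was 3.65 ± 0.40 in M1 (edgeR adjusted p = 1.1e-05) and 3.93 ± 0.40 in M2 (edgeR adjusted p = 2.7e-06).

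Region 19 of PDGFC, which crosses the higher-coordinate end of the span, fell in M2 by 0.84 on the log2 scale, a value of -0.30 and no call with the 10 Mb median removed. M2 was below M1 there by -1.37 ± 0.22 (edgeR adjusted p = 0.00018), or -0.70 and still called with the median removed. Regions 2, 6 and 7 were called in M2 and not in M1 against Parental, at -3.94, 3.17 and -1.55, and each also differed between M2 and M1 by test. Regions 1 and 5 rose in M1, by 2.35 and 1.48. Over the 231 pairs of PDGFC regions, the Pearson correlation of log2 CPM across the 7 group means had a median of 0.29 and ran from -0.95 to 0.94, with 82 pairs below 0. The pairs share their libraries, and the values are a description. The 40 flanking regions had a median difference of 0.48 in M1 and -0.72 in M2, and the medians over the 22 PDGFC regions were 0.52 and 0.01.

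**Figure D2:**
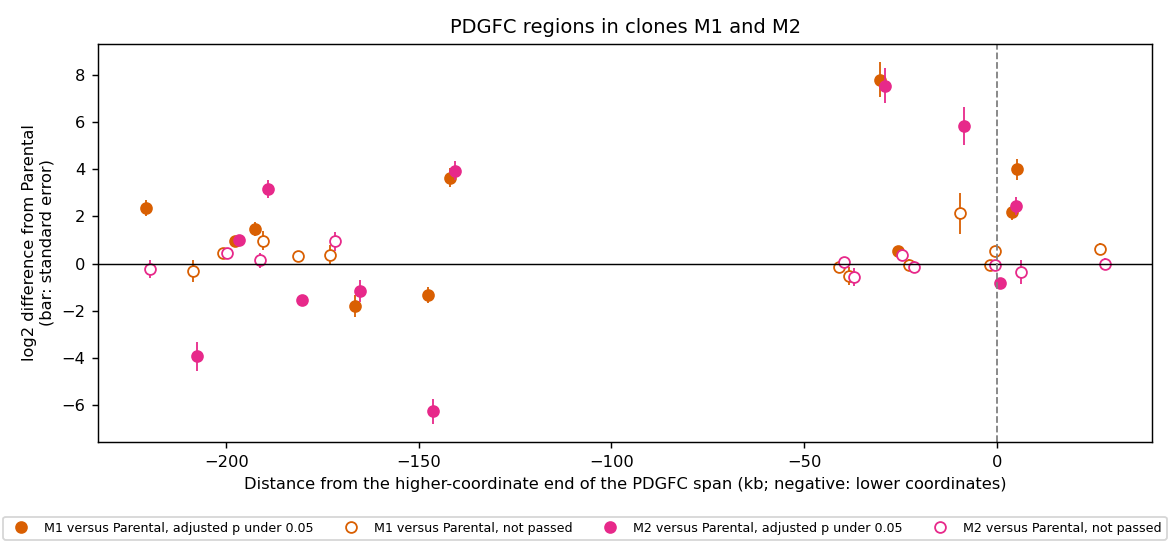
Each PDGFC region is plotted by its distance in kb from the higher-coordinate end of the gene span (dashed line), M1 and M2 drawn slightly apart, with its log2 difference from Parental and SE; filled points have adjusted p under 0.05. Points of both signs lie along the gene, with runs of like sign and unfilled points near the zero line. They reach from 7.82 (M1) and 7.56 (M2) at region 14 down to -6.28 (M2) at region 10.

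PDGFD encodes the D chain, which binds PDGFRB and, like the C chain, is secreted in latent form. All 7 of its regions were called lower in M2, where 34.9% of all regions were. The call held for 6 of them under every alternative run and less firmly for region 3. The start region, region 7 (chr11:104163834-104164536, covering the printed PDGFD sequence), held 10.2 and 11.6 CPM in Parental, 3.52 and 2.42 in E, 7.03 and 4.74 in EM1, 21.7 and 14.3 in EM2, 3.47 and 3.22 in EM3, 30.1 and 25.8 in M1, and 0.573 and 0.764 in M2. M1 was highest and M2 lowest, with no overlap between either and any other group. M1 differed from Parental by 1.35 ± 0.28 on the log2 scale (edgeR adjusted p = 0.0014) and M2 by -3.98 ± 0.37 (edgeR adjusted p = 1.3e-06). M2 and M1 differed by -5.33 ± 0.37 (edgeR adjusted p = 2.4e-07), the smallest p of that comparison among the 46 regions. E was below Parental by -1.88 ± 0.32 (edgeR adjusted p = 0.0036), and the value was -2.17 without E replicate 1. EM3 was below by -1.70 ± 0.30 (edgeR adjusted p = 0.011), a call lost without either Parental replicate (-1.79 and -1.64) or either EM3 replicate (-1.76 and -1.67). Of neighbouring groups in the order M1, EM2, Parental, EM1, EM3, E, M2, only E and M2 differed.

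Region 1 of PDGFD (chr11:103923430-103923885, inside the gene near its lower-coordinate end) was low in both M clones. It held 8.25 and 10.2 CPM in Parental, 4 and 6.48 in E, 6.23 and 8.99 in EM1, 1.54 and 2.34 in EM2, 3.47 and 7.46 in EM3, 0.744 and 0.198 in M1, and 0 and 0.382 in M2. The M clones overlapped below EM2, which lay below the rest. Against Parental the log2 difference was -4.41 ± 0.68 in M1 (edgeR adjusted p = 0.00016) and -5.30 ± 0.75 in M2 (edgeR adjusted p = 3.9e-05), the latter on 5 counts. Without M2 replicate 2 the fitted M2 value was -9.76, since the other M2 library held no count there (up to 0.344 CPM).

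Regions 2 and 4 of PDGFD fell in M2 and not by test in M1. Region 2 (chr11:103988387-103988873), with the highest mean log2 CPM of the 7, held 8.71 and 9.50 CPM in Parental, 5.70 and 6.26 in E, 10.3 and 10 in EM1, 8.94 and 8.96 in EM2, 8.16 and 9.07 in EM3, 12.3 and 9.58 in M1, and 3.78 and 0.459 in M2. Both M2 libraries were lowest but far apart: the log2 difference from Parental of -2.21 ± 0.54 (edgeR adjusted p = 0.0028) became -4.28 without M2 replicate 1 and -1.27 without M2 replicate 2, called each time. Region 4 (chr11:104005208-104005811) held 14.4 and 10 CPM in Parental, 13.7 and 13.8 in E, 8.01 and 9.48 in EM1, 9.87 and 6.23 in EM2, 6.14 and 5.74 in EM3, 10.7 and 7.07 in M1, and 0.802 and 0.229 in M2. Only M2 stood apart there, at -4.67 ± 0.48 from Parental (edgeR adjusted p = 2.5e-06).

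Region 3 of PDGFD (chr11:104003552-104003820), under 2 kb from region 4 and picked after its values were seen, rose in M1. It held 1.27 and 1.44 CPM in Parental, 0.607 and 0.988 in E, 1.34 and 1.46 in EM1, 0.771 and 0.857 in EM2, 1.16 and 0.604 in EM3, 10.6 and 10.2 in M1, and 0.458 and 0.611 in M2. M1 lay above all other libraries, by 2.93 ± 0.42 over Parental (edgeR adjusted p = 8.8e-05). In M2 region 3 was called lower than Parental (-1.3 ± 0.51, edgeR adjusted p = 0.036), a call lost with DESeq2 (adjusted p = 0.08), with only the 4 libraries compared (0.06) and with the 10 Mb median removed (-1.12). It was also lost without Parental replicate 1 (-1.39) or 2 (-1.23), M1 replicate 1 (-1.32) or 2 (-1.32), or M2 replicate 1 (-1.14) or 2 (-1.55). M2 lay below M1 at region 3 by -4.23 ± 0.47 (edgeR adjusted p = 1e-05), called under every alternative run. Regions 5 and 6 fell in M2, with log2 differences of -1.95 and -2.69. Summed over the PDGFD window, Parental held 58.5 and 57.4 CPM, M1 77.9 and 63.8, and M2 8.82 and 5.88. The 21 flanking regions had a median M2 difference of -0.32, while the median over the 7 PDGFD regions was -2.69. With the 10 Mb median removed region 7 was at -3.80 in M2 and still called.

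PDGFRA encodes the alpha receptor, which binds the A, B and C chains and marks fibroblasts and many mesenchymal progenitors. All 4 of its regions were called higher in M2 than in Parental, where 32.2% of all regions were. Region 2 (chr4:54227721-54228340, upstream of the first start) held 1.81 and 0.848 CPM in Parental, 7.76 and 0.769 in E, 1.51 and 0.697 in EM1, 1.31 and 0.468 in EM2, 1.33 and 0.806 in EM3, 0.744 and 0.991 in M1, and 33.3 and 30.6 in M2. M2 stood above every other library, E replicate 1 was next, and all other groups overlapped. The log2 difference of M2 was 4.58 ± 0.76 from Parental (edgeR adjusted p = 0.00014) and 5.16 ± 0.79 from M1 (edgeR adjusted p = 0.00013).

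Region 4 of PDGFRA (chr4:54281123-54281749, inside the gene and 47163 bases from the nearest start) was graded over more groups. It held 1.36 and 1.36 CPM in Parental, 7.89 and 6.59 in E, 0.712 and 0.139 in EM1, 4.39 and 4.60 in EM2, 0.405 and 0.907 in EM3, 6.49 and 6.01 in M1, and 29.1 and 23.9 in M2. M2 was highest, E, M1 and EM2 followed without differing as neighbours, and Parental, EM3 and EM1 were lowest. Against Parental the log2 difference was 4.27 ± 0.42 in M2 (edgeR adjusted p = 1.8e-06) and 2.19 ± 0.41 in M1 (edgeR adjusted p = 0.00079). In E it was 2.40 ± 0.42 (edgeR adjusted p = 0.0044), a call kept without E replicate 1 (2.27) and lost without Parental replicate 2 (2.43). In EM2 it was 1.72 ± 0.42 (edgeR adjusted p = 0.021), lost without either Parental replicate (1.72 and 1.68) or either EM2 replicate (1.75 and 1.69).

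Region 3 of PDGFRA (chr4:54233291-54233600, just before the second start), with the highest mean log2 CPM of the 4, held 7.35 and 6.70 CPM in Parental, 11.3 and 7.91 in E, 8.81 and 6.97 in EM1, 10 and 9.27 in EM2, 7.87 and 5.24 in EM3, 13.2 and 10.5 in M1, and 24.3 and 32.1 in M2. M2 lay above all other libraries, by 2.01 ± 0.28 over Parental (edgeR adjusted p = 3.5e-05). Region 1, before the gene, rose in M2 by 1.27, a call lost without Parental replicate 2 (1.02) or M2 replicate 1 (0.87).

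The neighbourhood of PDGFRA also rose in M2, by about as much as region 3 and by more than region 1. The median log2 difference of M2 from Parental was 2.02 over the 36 regions within 1 Mb outside the window, of which 27 were higher and 3 lower, and 1.72 over the 113 regions of the 10 Mb window. With the 10 Mb median removed, the M2 difference from Parental was 2.96 at region 2 and 2.65 at region 4, both still called. It was 0.38 at region 3 and -0.36 at region 1, neither called, so the direction at region 1 turned. Against M1 the M2 difference at region 4 went from 2.08 to 0.62 and lost its call, and at region 3 from 1.26 to -0.21. Summed over the PDGFRA window, Parental held 19.4 and 15.2 CPM and M2 held 110 and 100 CPM.

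PDGFRB encodes the beta receptor, which binds the B and D chains and is carried by pericytes. Its start region, region 3 (chr5:150155471-150156007, covering part of the printed PDGFRB sequence), was open in M2 and, at a lower level, in M1. It held 1.36 and 0.933 CPM in Parental, 6.91 and 1.54 in E, 0.801 and 0.837 in EM1, 2.39 and 1.01 in EM2, 1.39 and 1.21 in EM3, 4.78 and 4.69 in M1, and 20.6 and 21.6 in M2. M2 lay above all libraries and differed from M1, the next group, while the single high value in E was that of replicate 1. The log2 difference from Parental was 4.2 ± 0.58 in M2 (edgeR adjusted p = 3.2e-05) and 3.68 with the 10 Mb median removed. In M1 it was 2.04 ± 0.58 (edgeR adjusted p = 0.012), a call lost without Parental replicate 2 (1.80).

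The other PDGFRB regions moved less. Region 2 (chr5:150143315-150143768, inside the gene) held 15.5 and 16.9 CPM in Parental, 18.0 and 14.3 in E, 16.2 and 15 in EM1, 19.7 and 17.7 in EM2, 13.5 and 12.9 in EM3, 20.1 and 19.0 in M1, and 40.7 and 31.3 in M2. M2 was above all others, by 1.15 ± 0.19 over Parental (edgeR adjusted p = 0.00016) and by 0.63, still called, with the 10 Mb median removed. Region 1 (chr5:150112516-150113578) lies outside the PDGFRB span and overlaps the neighbouring receptor gene CSF1R. It held 33.6 and 31.2 CPM in Parental, 17.5 and 25.7 in E, 34.1 and 30.6 in EM1, 31.4 and 31.6 in EM2, 34.0 and 30.9 in EM3, 37.6 and 32.4 in M1, and 11.1 and 8.56 in M2. M2 lay below all others, by -1.73 ± 0.21 on the log2 scale (edgeR adjusted p = 9.4e-06). The 126 flanking regions had a median M2 difference of 0.50.

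**Figure D3:**
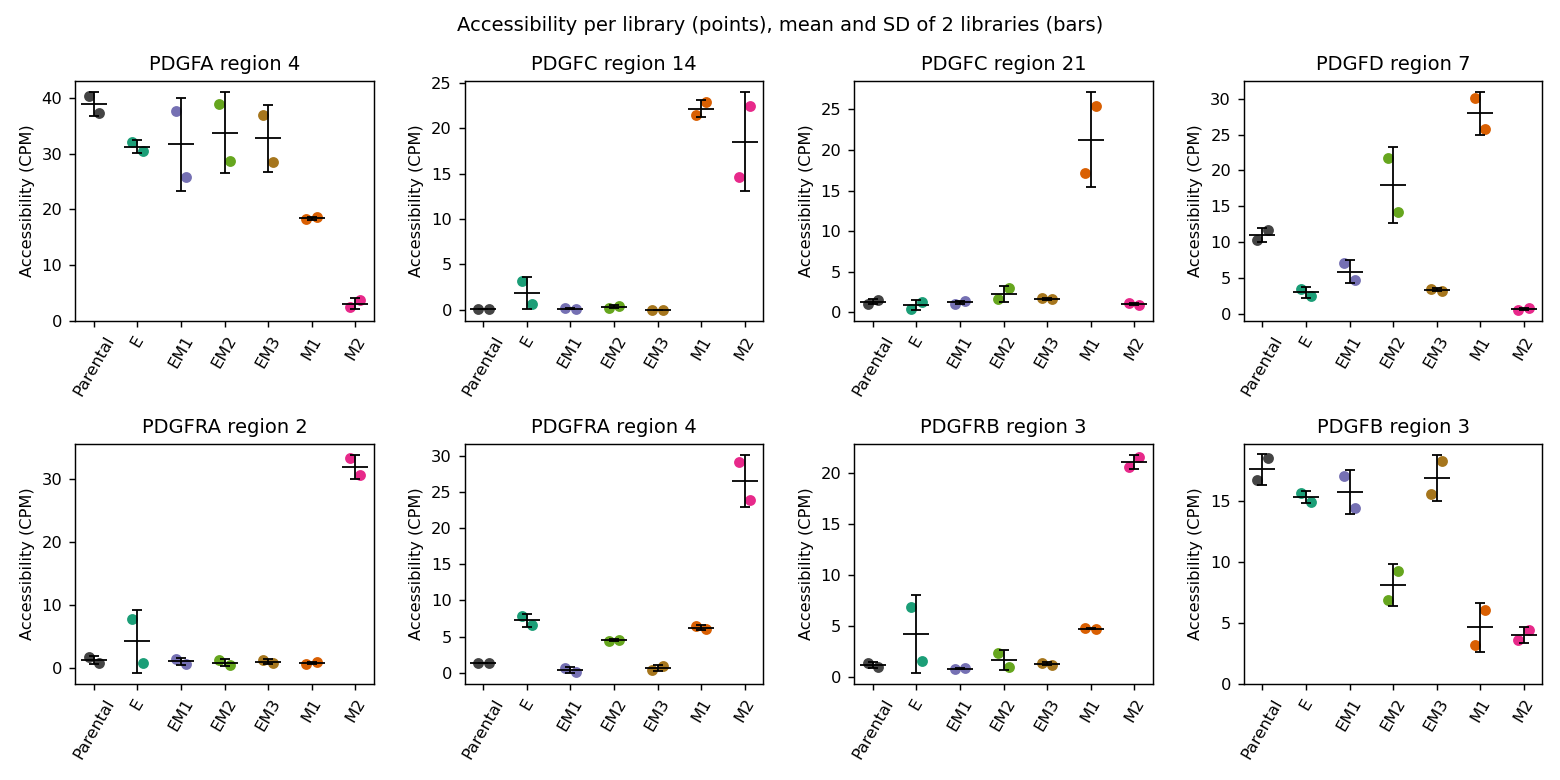
Each panel plots the CPM of 1 PDGF region in the 14 libraries by group (points), with the mean and SD of the 2 libraries of a group (bars); the vertical scales differ. At PDGFRA region 2 and PDGFRB region 3 the M2 libraries (33.3 and 30.6, 20.6 and 21.6 CPM) stand above all others, and at PDGFD region 7 M1 is highest and M2 lowest.

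**Figure D4:**
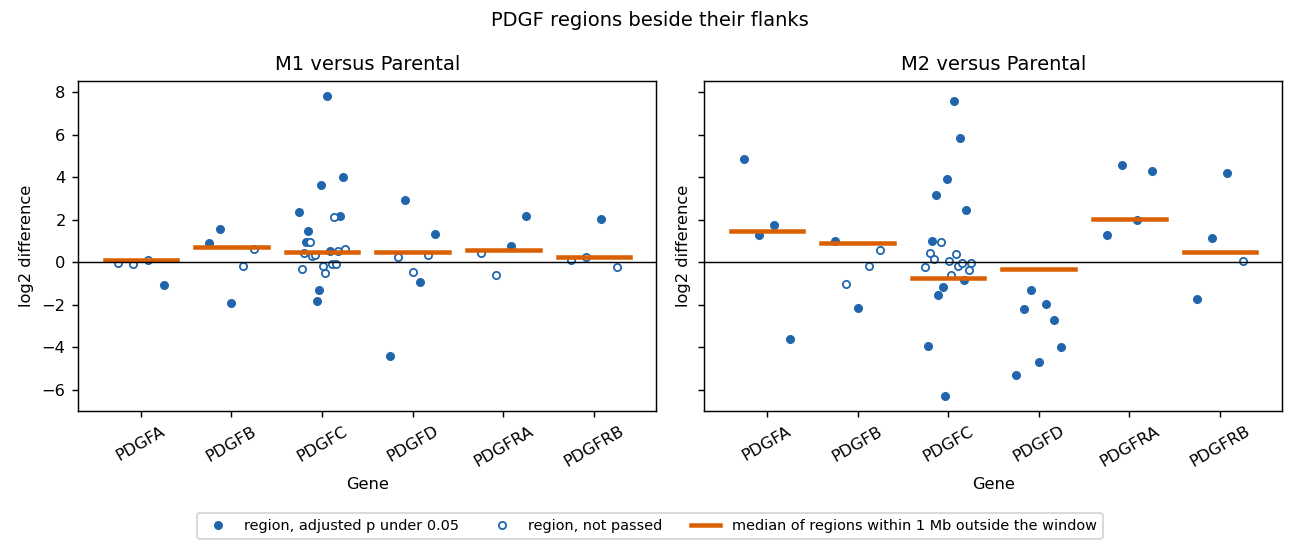
Points give the log2 difference from Parental of every PDGF region in M1 (left) and M2 (right) by gene, filled where adjusted p is under 0.05, and the bars give the median over regions within 1 Mb outside each window. In M2 the bar is at 2.02 for PDGFRA and 1.46 for PDGFA, whereas at PDGFD it is at -0.32 with all 7 points below it.

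The other genes of the pathway were taken from 5 lists, over the gene span extended by 10 kb. In M2 against Parental, 142 of 235 such regions were called (60.4%, 78 higher and 64 lower), and in M1 97 were (41.3%, 45 higher and 52 lower). The backgrounds given above were 67% in M2 (32.2% higher and 34.9% lower) and 42.4% in M1 (19% higher and 23.4% lower). They apply to each list below. Ligand processing and binding genes had 12 of 48 regions higher and 17 lower in M2. ST14, the protease matriptase, fell from 30.5 ± 4.8 CPM (SD, n = 2) in Parental to 7.00 ± 0.47 in M1 and 1.28 ± 0.30 in M2 at its named region. PLAT encodes the tissue plasminogen activator, a protease that can activate the C chain. Its named region rose from 1.07 ± 0.79 CPM in Parental to 48.3 ± 8.8 in M2, and E held 6.59 ± 7.0 there. The named region of LRP1, a scavenger receptor that can bind PDGF, was at 6.97 ± 3.7 CPM in Parental, 36.6 ± 13 in M1 and 3.21 ± 0.32 in M2.

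Adapters and effectors had 30 of 83 regions higher and 23 lower in M2, and 14 higher and 18 lower in M1. A region of GAB1, a docking protein, fell in M1 and in M2 (log2 differences of -5.05 and -5.61). Negative regulators had 21 of 56 higher and 15 lower in M2, and 10 higher and 18 lower in M1. Regions of the phosphatase genes PTPRJ and PTPN1, whose products dephosphorylate receptor kinases, were among the 15 that fell in M2. They were named for their small p and do not stand for all regions of these genes. The named PTPN1 region went from 78.9 ± 1.4 CPM (SD, n = 2) in Parental to 33.8 ± 4.8 in M1 and 7.54 ± 1.5 in M2. The 2 named PTPRJ regions fell in M2 (-8.48 and -5.31) and in M1 (-5.88 and -3.75).

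Related ligands and receptors of the same superfamily had 9 of 25 regions higher and 2 lower in M1, and 6 higher and 7 lower in M2. Of all regions, 19% were higher and 23.4% lower in M1, and 32.2% and 34.9% in M2. No region lay at FLT1, KDR, FLT4 or FLT3, and 1 of the 25, at CSF1R, is also PDGFRB region 1. The named region of PGF, the placental growth factor, rose by 3.12 in M1 and 2.40 in M2. At VEGFC, 1 region fell in both (-2.56 and -4.47) while another rose in M1 (1.15) and fell in M2 (-0.79). Response genes had 9 of 23 regions higher and 2 lower in M2, beside the same 32.2% and 34.9%. MYC was at 87.5 ± 1.0 CPM (SD, n = 2) in Parental and 875 ± 140 in M2 at its start, with 193 ± 130 in E, and a region of the hyaluronan synthase gene HAS2 fell from 32.0 ± 2.1 to 4.77 ± 0.70 in M2.

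Genes of like pattern were sought among regions at the starts of other genes, over the 7 group means of log2 CPM. For the PDGFRB start the closest were ERMAP/SVBP, TBC1D12 and GTPBP1 (Pearson r = 1.00, 1.00 and 1.00), and 15.7% of 7909 candidates had r over 0.9. For the PDGFD start they were DCTD, LYPD6 and PHF19 (0.99, 0.99 and 0.99), with 1.54% of candidates over 0.9. PDGFA region 4 was closest to TINAGL1, F2RL1 and LRAT (1.00, 1.00 and 1.00; 5.60% over 0.9), and PDGFRA region 3 to ADM/SBF2, EIF5 and FBXO5 (1.00, 1.00 and 1.00; 18.8% over 0.9). PDGFC region 3 was closest to GSTCD/INTS12, ROBO3 and TRAM1L1 (0.98, 0.98 and 0.97, with 1.49% over 0.9). For PDGFB region 5 they were CTNNAL1, HLA-B and SH3BP4 (0.99, 0.99 and 0.98, with 1.11% over 0.9). PDGFB region 5 was not called across the groups, so its pattern was not told from the spread between libraries. These are the highest of all candidates' values, over 7 points from the same libraries and are given as a description. The correlation does not measure the size of a change. From Parental to M2, ERMAP/SVBP went from 11.4 to 17.6 CPM, whereas PDGFRB region 3 went from 1.36 and 0.933 to 20.6 and 21.6. DCTD went from 69.8 to 40.3 CPM, whereas PDGFD region 7 went from 10.2 and 11.6 to 0.573 and 0.764.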

How the data were processed

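ATAC-seq counts of 14 libraries (7 groups of 2, assigned by the titles) were read from the deposited table, in which the authors gave raw counts per library for 65774 hg38 regions. The submitters' processing notes name, without roles, featureCounts, MACS2 2.1.1, Bowtie2 2.2.6, cutadapt 1.9.1, deepTools, Picard and bcl2fastq 2.20.0.422; the way peaks became regions is not stated there. Deposited peak lists were not used here. Regions with enough counts (edgeR filterByExpr, minimum count 10) numbered 65771. Counts were scaled by TMM and tested with edgeR 4.0.16 (R 4.3.3) by quasi-likelihood F tests on 7 group means over all libraries, adjusted by Benjamini-Hochberg over all regions tested; SE is the log2 difference over the root of F. Totals of 8138944 to 16786823 counts set the precision, and the biological coefficient of variation was 0.208. Intervals are exact at 95% and cover counting error only.

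The members and lists were chosen with earlier results of these data known. By rule, values per library are given for the region at each gene start, the region with the highest mean log2 CPM and up to 3 called regions with the widest range of group means of log2 CPM; up to 3 called regions per list with the smallest p are named, except some that are not reported here. Alternatives were library totals, DESeq2 1.42.0 size factors and test, no filter, only the 4 libraries compared, the replicate number as a block, removal of the 10 Mb window median, regions by gene span, and leaving out each library. Gene spans and promoters are from RefSeq GRCh38.p14 tables, which give spans and starts only, so exons and introns were not told apart. All 6 members matched a span and 4 a start.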

Additional observations from a re-analysis of the deposited data

How the results depend on the processing

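The counts over the 46 regions in M1, in M2 and in M2 against M1, and across the groups, stayed within 1.5 times under every alternative run. For E against Parental, 5 regions became 9 with DESeq2 and 2 with only the 4 libraries compared. For EM3, 2 became 4 with only the 4 libraries compared. Leaving out 1 library each gave 1 to 10 regions for E (3 without E replicate 1, 10 without E replicate 2, 2 and 1 without Parental replicates 1 and 2), 0 to 4 for EM2 (0 without either Parental replicate or EM2 replicate 1, 1 without EM2 replicate 2), 0 to 2 for EM3 (0 without either Parental or either EM3 replicate), 16 to 24 for M1, 29 to 33 for M2, 25 to 28 for M2 against M1, 37 to 39 across the groups and 0 for EM1. A group left with 1 library was assumed to vary like the others.

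With the replicate number as a block, E had 10 regions called and EM3 had 4. M1 had 26, M2 35, M2 against M1 28, EM2 4 and EM1 0. Same-numbered libraries deviated together at correlations of 0.02 to 0.59 over 21 pairs of groups, 19 of them over 0.1, and the labels give no shared source, so the numbers were not taken to pair libraries.

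Removing the 10 Mb median reversed 3 called differences: PDGFRA region 1 in M2 against Parental (-0.36), PDGFRA region 3 in M2 against M1 (-0.21) and PDGFC region 22 in M2 against M1 (0.018). It changed the split of M2 against M1 from 10 higher and 17 lower to 16 and 14. Of 90 called differences, 60 kept their call under every alternative and 17 lost it with this removal, by its construction a change of reference; 13 lost it only where a library was left out. Of the 49 called differences of regions given per library, 40 to 49 stayed called when a library was left out. These 49 are of the regions chosen by rule. They leave out PDGFC regions 11 and 21 and PDGFD region 3, which were picked after their values were seen. Scaling by library totals shifted the median of all regions by -0.11 in M2 against Parental and by -0.15 in M2 against M1. The 2 libraries a group and levels near 0.2 to 0.4 CPM, the worth of 3 counts, limit what can be told of regions that were closed.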
